A study of Mus musculus with 4 samples.

Results

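Apolipoproteins and the proteins that load lipid onto them were examined in DNA from mouse intestine at 2 ages. The members were chosen by name and comprised Apoa1, Apoa2, Apoa4, Apoa5, Apob, Apoc1, Apoc2, Apoc3, Apoe and Mttp. The arrays carried 58 probes with these names among 83122 in all, in 12 of 19133 regions. A name in the files can join a pair of neighbouring genes whose shared upstream sequence a probe covers, and such probes were counted for the member. The samples were C57BL/6 mice, an inbred strain bought from Jackson Laboratories, at 3 months and at 32 months of age, with no treatment named in the labels. Both ages are marked WT in a file header of the first array, which also holds RMCA, an abbreviation that no label spells out. On each of 2 Agilent oligonucleotide arrays the 3-month DNA carried Cy3 and the 32-month DNA Cy5, and chromosomes 1 to 8 were on the first array and 9 to 19, X and Y on the second. Each age had 1 sample per array and no dye swap, so no difference below has a replicate check, a test or a p-value. No source used here gives the sex of the animals, how many were pooled, the part of the intestine or how methylated DNA was enriched or depleted, so values are reported as signal.

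Dietary fat enters the body as chylomicrons, large lipoproteins that the absorptive cells of the small intestine assemble around Apob. The microsomal triglyceride transfer protein, encoded by Mttp, loads lipid onto Apob as it is made. Apoa1 and Apoa4 are added in the same cells, and the small C apolipoproteins and Apoe, which steer lipolysis and uptake by the liver, join the particles in the circulation. Apoa1, Apoc3, Apoa4 and Apoa5 lie side by side on mouse chromosome 9, and Apoc2, Apoc4, Apoc1 and Apoe form a second cluster on chromosome 7.

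Of the 10 genes, 9 had probes and no probe was named Apob. A probe was usable when its signal was well above background, as the scanner software judged it, at 1 age or more, which held for 50 of the 58 probes. Both ages were well above background for 45 of these, only the 3-month sample for 3 and only the 32-month sample for 2. No member probe was flagged as an outlier. For each probe the log2 ratio of 32-month over 3-month signal was taken and the median ratio of its array subtracted. Positive values thus stand for more relative signal at 32 months. The subtracted medians were 0.0044 for chromosomes 1 to 8 and -0.14 for the array that holds the Apoa1 cluster. Probes of 1 name at most 1000 bp apart formed a region. A region was measured when it held at least 2 usable probes, and 10 of the 12 member regions were.

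A region was called higher at 32 months when its median log2 ratio was at least 1 and every usable probe lay above 0, and lower in the mirrored case. Apoa4 was called higher, no member region was called lower, and the other 9 measured regions met neither rule. Over all 15352 measured regions on the arrays 2.01% were called higher and 0.632% lower. Higher calls made up 76.1% of the calls over all regions, against 64.4% without centring and 95.5% after normexp background correction. The median over the 10 member regions was 0.06, beside 0.015 over all regions, whose middle values ran from -0.15 at the lower quartile to 0.21 at the upper. Of the member regions 8 lay above 0 and 2 below, and the uncalled ones ran from -0.38 in Apoe to 0.52 in the sequence between Tomm40l and Apoa2. The members had been chosen with the Apoa4 value known, so its call is a description of these samples. The tissue is a mixture of cells, and a change in the share of a cell type cannot be told apart from a change within its cells.

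**Figure D1:**
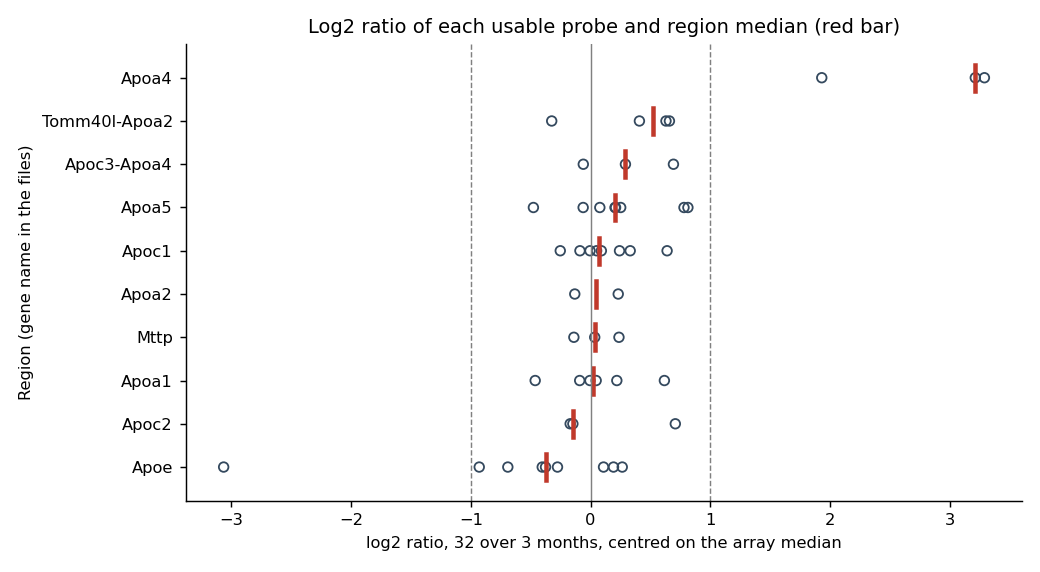
Log2 ratio of 32-month over 3-month signal, centred on the array median, for every usable probe (open circles) of the 10 measured member regions, with the region median as a red bar and dashed lines at -1 and 1. The 3 Apoa4 probes lie between 1.93 and 3.29, while the medians of the other regions lie between -0.38 and 0.52.

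Apoa4, whose product is a component of chylomicrons made mainly by enterocytes, had a higher signal at 32 months in all 3 of its probes. These spanned chr9:45991909-45992458, positions as the files give them with no genome build stated, and the array design placed them inside the gene, without saying whether in an exon or an intron. Their sequences are shown because they carry the only call among the members. The last line is the probe named for the interval between Apoc3 and Apoa4, which ended 450 bp before the first Apoa4 probe. Capitals mark CG, the dinucleotide that carries most methylation in mammalian DNA.
Apoa4 probe 1: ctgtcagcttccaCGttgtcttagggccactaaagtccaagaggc
Apoa4 probe 2: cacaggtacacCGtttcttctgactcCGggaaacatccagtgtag
Apoa4 probe 3: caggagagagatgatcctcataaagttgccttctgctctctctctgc
Apoc3-Apoa4 probe 4: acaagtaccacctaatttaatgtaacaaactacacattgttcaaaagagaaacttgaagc
The first Apoa4 probe went from a processed signal of 1380 at 3 months to 4780 at 32 months, a 3.82-fold difference after centring and a log2 ratio of 1.93. The second went from 242 to 2150, with a log2 ratio of 3.29, a 9.79-fold difference. The third went from 1590 to 13400, with a log2 ratio of 3.21, a 9.28-fold difference, and its own sequence held 0 CG. All 3 were well above background at both ages, so none of these folds rests on a dim signal. The region had a median of 3.21 ± 0.76 (SD over 3 probes), and stood at place 48 of 15352 measured regions from the top. Of all 62410 usable probes, 1304 had a ratio as high as the first Apoa4 probe, 424 as high as the second and 443 as high as the third. After normexp correction the median was 2.14, the mean over its probes was 2.81, and the remaining alternatives gave values from 3.07 to 3.21, with the call kept under each.

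The nearest measured probes on either side of Apoa4 did not share its difference. Upstream, the probe that ended 450 bp away had 59.1 at 3 months and 51.7 at 32 months and was not well above background at either age, so the near flank has no measured ratio. The next probe in that direction ended a further 4308 bp away and had 502 and 437, with a log2 ratio of -0.061. Downstream, the nearest probe belonged to Apoa5, at a distance of 26420 bp, with a dim 32-month signal as given for that gene. Where the difference at Apoa4 begins and ends between these positions was not measured.

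The interval between Apoc3 and Apoa4 had a region of 3 probes at its Apoc3 end, at chr9:45986500-45987092. Their signals were 108 and 120 in the first probe, 336 and 493 in the second and 502 and 437 in the third, at 3 and 32 months. The region median was 0.29 ± 0.38 (SD over 3 probes), with values on both sides of 0 and no call. Apoc3, whose product slows the clearance of triglyceride-rich particles, had 2 probes inside the gene. The first had 595 and 652, a log2 ratio of 0.27, and the second had 55.1 and 57.7, not well above background at either age, so the gene body was not measured as a region.

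Apoa1 encodes the main protein of high-density lipoproteins, and its 6 probes covered chr9:45978744-45980206. The region median was 0.021 ± 0.36 (SD over 6 probes), and it lay below 0 without centring, with the scanner's own log ratio and after loess correction, at -0.12, -0.12 and -0.07. Signals at 3 months ran from 85 to 1260 and at 32 months from 56 to 1140. The probe with 1260 at 3 months had 1140 at 32 months, a centred log2 ratio of -0.0050. The highest ratio was 0.62, in a probe with 130 and 181, and the lowest was -0.46, in a probe with 85 and 56. The latter was not well above background at 32 months and was 1.38-fold lower there by its dim signal. Such folds of dim probes are neither bounds nor firm sizes, since the dim signal was not well above background. They are on the centred scale, as the log2 ratios are, so they differ from the quotient of the printed signals. No probe of Apoa1 reached the size of the calling threshold in either direction.

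Apoa5, which activates lipolysis of triglycerides in plasma and is known mainly from liver, had 8 usable probes over chr9:46018878-46020294. Its region median was 0.21 ± 0.42 (SD over 8 probes). Of the 8 ratios, 6 were above 0 and 2 below. The 2 highest were 0.81, in a probe with 70.2 and 112, and 0.78, in a probe with 109 and 170. The former was not well above background at 3 months, and was 1.76-fold higher at 32 months after centring, by its dim signal. The lowest was -0.48, in a probe with 82.2 and 53.6 that was dim at 32 months and 1.39-fold lower there by that dim signal.

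**Figure D2:**
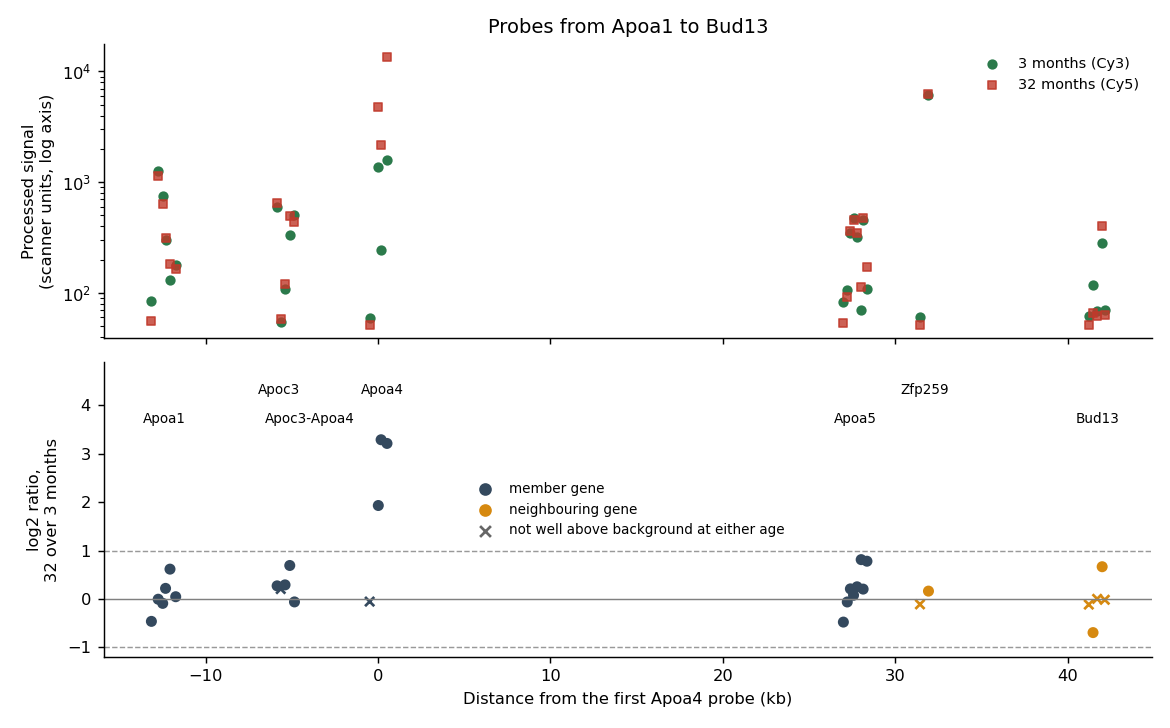
Processed signal at 3 and 32 months (upper panel, log axis) and centred log2 ratio (lower panel) of the probes from Apoa1 to Bud13, against the distance in kilobases from the first Apoa4 probe. Crosses mark probes not well above background at either age. The 3 Apoa4 probes are the only ones above the dashed line at 1.

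Beyond Apoa5 the nearest genes of the same stretch were Zfp259, now named Zpr1, a zinc finger protein gene 3023 bp away, and Bud13, a splicing factor gene 12815 bp away. Zfp259 had 1 usable probe, with 6140 and 6240 and a log2 ratio of 0.16. Bud13 had 2 usable probes with opposite signs, 118 and 66.2 in the first and 281 and 405 in the second, and a median of -0.014 ± 0.96 (SD over 2 probes). The first was not well above background at 32 months and was 1.62-fold lower there by its dim signal. Bud13 was not called, and Zfp259 was not measured as a region. Within 100000 bp of the cluster no other region was measured.

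The chromosome 7 cluster held no called member. Apoe, the ligand through which remnant particles bind receptors of the low-density lipoprotein family, had 9 usable probes over chr7:18857368-18859775 and a region median of -0.38 ± 1.02 (SD over 9 probes). Its spread was the widest of the member regions, and 6 probes lay below 0 against 3 above. That median was 0.0033 after normexp correction and below 0 under the remaining alternatives. The first 3 probes are shown because the log2 ratio shrank in size from each to the next along the sequence.
Apoe probe 1: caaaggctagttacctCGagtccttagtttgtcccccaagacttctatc
Apoe probe 2: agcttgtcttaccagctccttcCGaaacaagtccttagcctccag
Apoe probe 3: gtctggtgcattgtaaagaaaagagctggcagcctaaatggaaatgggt
Apoe probe 1, inside the gene at the start of the region, went from 3280 at 3 months to 393 at 32 months, 8.37-fold lower after centring. Its log2 ratio of -3.07 was matched or exceeded on the low side by 131 of 62410 usable probes, itself included, and became -1.48 after normexp correction. Probe 2, also inside the gene, went from 2640 to 1640, a log2 ratio of -0.69. Probe 3, which the design annotates as promoter, went from 608 to 461, a log2 ratio of -0.40. The difference past the threshold in Apoe thus rested on 1 probe, and the region missed the call by its median and by its signs. Probe 1 was singled out after its value was seen.

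Further along Apoe no ratio reached the size of the threshold, and probe 7 came nearest to it. Probe 4 had 195 and 235, probe 5 had 955 and 791 and probe 6 had 934 and 1010, with log2 ratios of 0.26, -0.28 and 0.11. Probe 7 had 121 and 63.7, a log2 ratio of -0.93 and larger in size than those of probes 2 and 3. It was not well above background at 32 months and was 1.91-fold lower there after centring, by its dim signal. The last 2 probes had high signal at both ages, with 10300 and 11800 in probe 8 and 7660 and 5920 in probe 9, and log2 ratios of 0.19 and -0.38. The first probe named for Tomm40, a mitochondrial import gene, began 205 bp beyond and had 1350 and 1210, a log2 ratio of -0.16.

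Apoc1, which inhibits lipid transfer and the uptake of lipoproteins, had 8 usable probes over chr7:18850219-18851993 and a median of 0.07 ± 0.28 (SD over 8 probes). Its last probe had 46300 and 48100, with a log2 ratio of 0.051. The probe before it, whose end lay 91 bp short of that probe's start, had 70.4 and 110, a ratio of 0.64 and the highest of the gene. The remaining 6 ratios lay between -0.25 and 0.33. Apoc2, the cofactor that lipoprotein lipase needs to hydrolyse triglycerides, had 3 probes over chr7:18836228-18836638 and a median of -0.15 ± 0.50 (SD over 3 probes), which lay above 0 with the mean over probes, at 0.13, and after normexp correction, at 0.09. Its probes had 148 and 134, 709 and 632, and 155 and 254, so that only the last was higher at 32 months, with a ratio of 0.71.

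**Figure D3:**
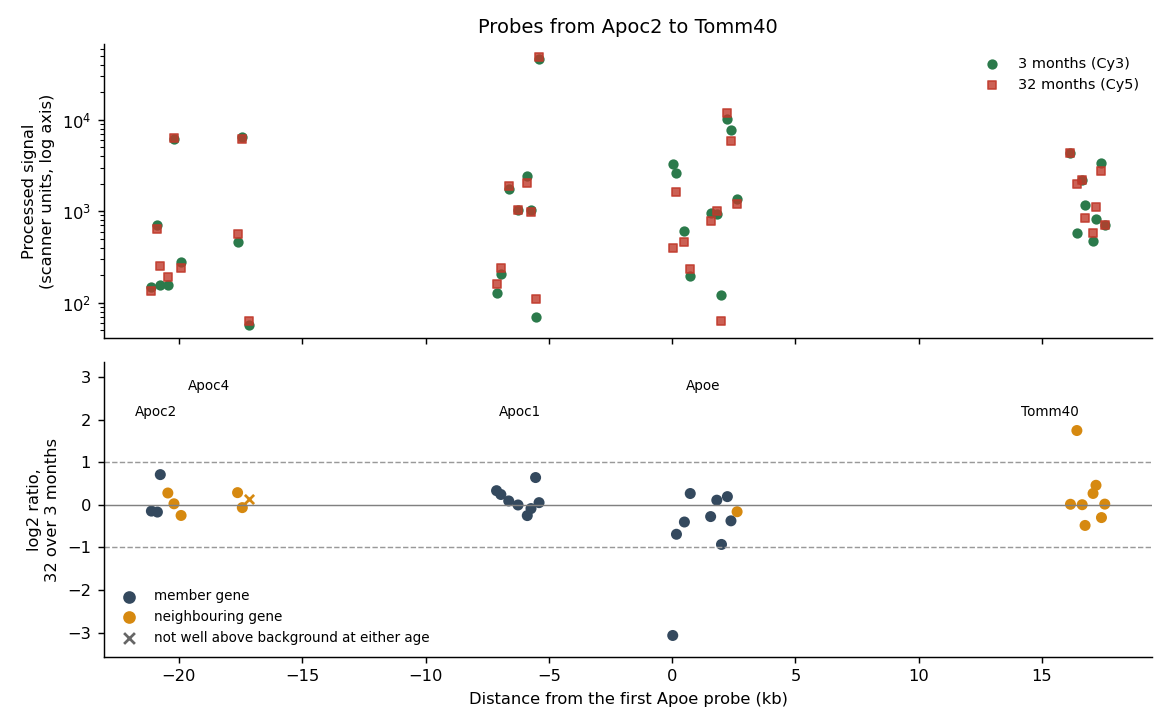
Processed signal at 3 and 32 months (upper panel, log axis) and centred log2 ratio (lower panel) of the probes from Apoc2 to Tomm40, against the distance in kilobases from the first Apoe probe. Among the member probes only Apoe probe 1, at -3.07, lies outside the dashed lines at -1 and 1, and 1 Tomm40 probe lies above them at 1.74.

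Of the 12 other regions within 100000 bp of this cluster, 10 were measured and 1 was called. This was a part of the upstream sequence shared by Gemin7 and Zfp296, 99938 bp from the nearest member probe. It was lower, at -1.38 ± 1.43 (SD over 4 probes), with probes from -3.21 to -0.18. That call was kept in 9 of 11 alternative settings and ended after normexp correction, at -0.85, and with the threshold at 1.5. At the other end of the shared interval, past the 100000 bp limit, the probes had log2 ratios of 0.089, -0.94 and -0.74, which met neither rule. The 2 regions of Apoc4, a minor apolipoprotein gene between Apoc2 and Apoc1, had medians of 0.024 and 0.11. The upstream region of Tomm40 had a median of 0.014 ± 0.68 (SD over 8 probes). In it 1 probe had 584 and 1960, a log2 ratio of 1.74, and the other 7 lay between -0.48 and 0.46.

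Apoa2, the second most abundant protein of high-density lipoproteins, was covered by 7 probes in the interval shared with Tomm40l and by 2 inside the gene. The shared interval, chr1:173059216-173061669, had a median of 0.52 ± 0.46 over its 4 usable probes, the highest of the uncalled member regions. The probes with signal at both ages had 417 and 334, 105 and 163, and 743 and 989. The fourth had 57.9, not well above background, and 91.7, 1.58-fold higher at 32 months by its dim signal. The 3 probes left out as dim had between 60.6 and 68.3 at both ages. With these dim probes kept the median was 0.036, and after normexp correction it was 0.04. Inside Apoa2 the pair of probes had 716 and 843, and 201 and 184, a median of 0.05 ± 0.26 (SD over 2 probes). Within 100000 bp of Apoa2, 11 of 17 other regions were measured, with medians from -0.22 to 0.87, and none was called.

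Mttp had 6 probes over chr3:138068418-138069591, of which 3 were usable. These had 218 and 224, 170 and 201, and 235 and 214, and the region median was 0.035 ± 0.19 (SD over 3 probes), or -0.039 after normexp correction. The other 3 lay between 58 and 70.4 at both ages, not well above background. The 3 measured neighbours within 100000 bp had medians from 0.15 to 0.29, with no call. For Mttp and the remaining uncalled members the absence of a call says only that these few probes met neither rule in 1 sample per age.

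**Figure D4:**
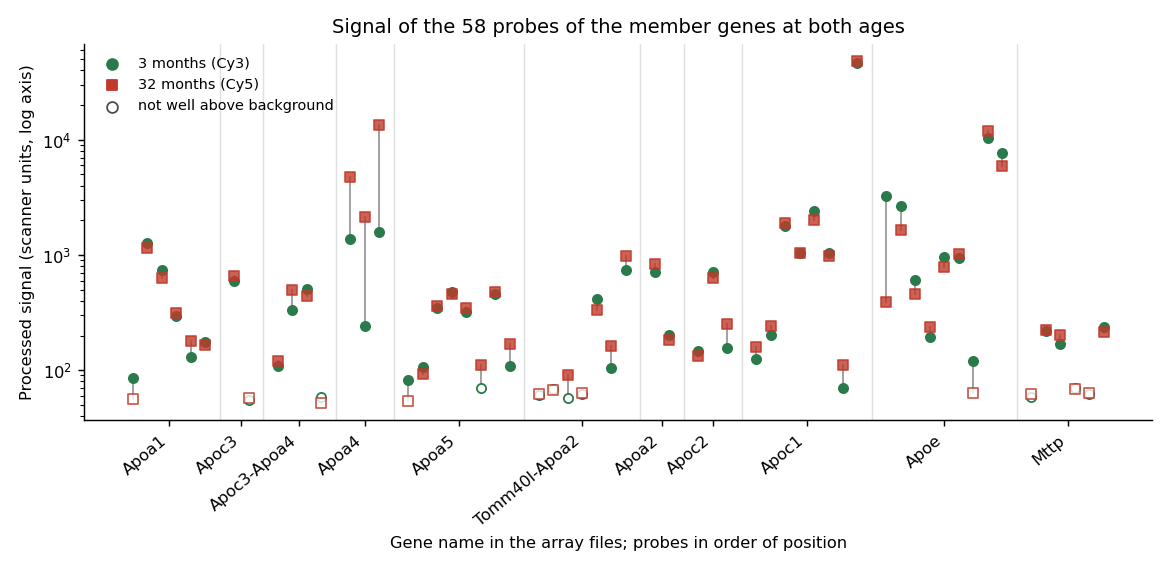
Processed signal (scanner units, log axis) of the 58 member probes at 3 months (green circles) and 32 months (red squares), grouped by the gene name in the files and ordered by position; open symbols were not well above background and grey lines join the ages. The long lines are the 3 Apoa4 probes, higher at 32 months, and the first Apoe probe, lower at 32 months.

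Single probes of the member genes spread about as widely as those of the rest of the arrays. Of the 50 usable member probes, 3 had a log2 ratio of 1 or above and 1 had -1 or below, where 6.35% and 3.35% of all usable probes did. These were the 3 probes of Apoa4 and probe 1 of Apoe. Within 0.5 of 0 lay 36 member probes, or 72%, beside 72.5% of all usable probes. The median was 0.099 over member probes and 0.016 over all, with 30 member probes above 0 and 20 below. By the position class of the design, the 7 usable probes in shared upstream sequence had a median of 0.41, the 16 inside genes 0.24 and the 27 in promoters -0.0044. Class medians over all probes were not taken, and the inside class includes the 3 Apoa4 probes, so no trait of the classes is read from these. The class inside genes held both extremes, from -3.07 in Apoe to 3.29 in Apoa4. Across the 58 member probes the signals at 3 and 32 months correlated at Spearman's rho 0.94 and Pearson's r 0.93, as a description of probes that share arrays and base composition. Brightness correlated with the share of G and C in the probe at rho 0.65 and r 0.64, and with the number of CG at rho 0.005 and r -0.045, so that levels of different probes are not compared here.

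The member probes held few CG. Their GC content ran from 26.7% to 55.6% with a median of 45.8%, beside 42.3% for all probes. Each held between 0 and 2 CG, and 34 of the 58, or 58.6%, held none, where 46.9% of all probes did. The motif CCCGGG, the same on both strands and cut by enzymes that some methods of enriching methylated DNA employ, occurred in 0 member probes and in 249 of all probes, or 0.3%. Whether such an enzyme was used here is not given in the sources used here. The DNA fragments that bound to a probe can reach beyond it, so the count in the probe is not that of the fragment.

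Promoter sequence of the members was taken from RefSeq on GRCm38.p6, as windows from 250 bases before to 50 after a transcript start. The table held 12 windows for 8 member genes and none for Apoc1 and Apoc3. Their CG count ran from 1, in Apoa4 and in an Apoa2 window, to 27 in Mttp, and 6 of the 12 held 5 or fewer, where 43.6% of all 32851 windows did and the median was 7. CCCGGG occurred in 2 member windows, of Apob and Apoe, and in 13.5% of all. The 250 bases before the start are printed for Apoa4, the called gene, for Apoa1, where 2 probes lie, and for Mttp, the window richest in CG, with CG in capitals and 5′ to 3′ on the strand of the gene.
Apoa4, chr9:46240594-46240843, plus strand: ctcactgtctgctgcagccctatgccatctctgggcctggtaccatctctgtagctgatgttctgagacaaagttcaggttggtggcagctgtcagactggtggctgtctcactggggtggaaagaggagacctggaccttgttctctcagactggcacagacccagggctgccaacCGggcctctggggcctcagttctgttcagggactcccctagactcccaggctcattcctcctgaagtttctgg
Apoa1, chr9:46228380-46228629, plus strand: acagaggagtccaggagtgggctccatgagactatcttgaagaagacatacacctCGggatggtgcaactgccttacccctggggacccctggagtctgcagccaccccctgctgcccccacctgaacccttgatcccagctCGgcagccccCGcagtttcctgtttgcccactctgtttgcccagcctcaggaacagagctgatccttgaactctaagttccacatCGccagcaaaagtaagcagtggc
Mttp, chr3:138143419-138143668, minus strand: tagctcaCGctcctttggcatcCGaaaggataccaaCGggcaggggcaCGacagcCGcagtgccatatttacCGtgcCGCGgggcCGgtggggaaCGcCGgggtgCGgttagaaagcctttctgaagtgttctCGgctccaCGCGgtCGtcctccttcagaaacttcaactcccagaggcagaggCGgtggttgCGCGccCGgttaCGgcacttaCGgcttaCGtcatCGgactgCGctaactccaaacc
By exact sequence match, 7 member probes lay wholly in a member's window. In Apoa1 they lay 222 to 174 and 58 to 8 bases before the start and had log2 ratios of -0.091 and 0.22. In Apoa2 a probe 110 to 60 bases before a start had 0.41, in Apoa5 a probe 132 to 87 bases before the earlier start had 0.077, and in Apoe a probe 179 to 131 bases before a start had -0.40. In Apoc2 probes 56 to 8 and 175 to 124 bases before the start had -0.17 and 0.71. Apoe probe 1, at -3.07, was not counted: part of it matched the upstream end of another Apoe window and the rest lay beyond. No probe matched the windows of Apoa4 and Mttp, so the Apoa4 difference and the Mttp signals were measured outside the windows printed above. The array design placed the Apoa4 probes inside the gene. Their distance from the Apoa4 window is not given here, because no coordinates were converted between builds.

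Genes that act with the members were read from lists of lipid absorption and transport. Of 86 genes listed, 72 were measured, in 87 regions, of which 1 was called higher, 1.15%, and 1 lower, beside 2.01% and 0.632% of all measured regions. The median over these regions was 0.0064. Genes of triglyceride and cholesterol handling in enterocytes, such as the acyltransferases and sterol transporters, had none of 19 regions called, with a median of -0.054 and a range from -0.46 to 0.62. Genes of chylomicron transport and of Apob processing had none of 9 called, with a median of 0.058 and a range from -0.79 to 0.35. Lipoprotein receptors and plasma enzymes had none of 18 called, with a median of 0.047. Among 14 regions of other apolipoproteins 1 was called lower, and among 27 of transcription factors of apolipoprotein genes 1 was called higher.

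The region called higher was the upstream sequence shared by Creb3l3 and Map2k2. Creb3l3 encodes a membrane-bound transcription factor of liver and small intestine that activates Apoa4 and other apolipoprotein genes, and Map2k2 a kinase of growth factor signalling. The median at chr10:80502153-80502329 was 3.87 ± 1.65 (SD over 2 probes). Both of its probes are shown because their ratios ran in the same direction.
Creb3l3-Map2k2 probe 1: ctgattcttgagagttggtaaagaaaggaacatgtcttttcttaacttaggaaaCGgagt
Creb3l3-Map2k2 probe 2: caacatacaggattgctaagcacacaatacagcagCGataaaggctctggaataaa
The first shared probe had 65.4 at 3 months, not well above background, and 1950 at 32 months, 32.8-fold higher after centring by its dim signal. The second had 694 and 4110, a log2 ratio of 2.71. After normexp correction the region median was 2.31 ± 0.23 (SD over 2 probes), so the size of the first fold depended on the background correction. At the other end of the shared interval, from 80508186, the 3 probes had 1100 and 986, 287 and 282, and 38100 and 22700, with log2 ratios of -0.018, 0.11 and -0.61. The higher signal thus lay at 1 end of the interval only. The call was kept under all 10 settings in which the region was measured, with medians from 2.31 to 3.87.

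The region called lower was that of Apod, a lipocalin unrelated in structure to the members, at chr16:31233908-31235165. It rested on 2 of 6 probes, with 224 and 61.8 in the first and 168 and 58.3 in the second, and a median of -1.55 ± 0.23 (SD over 2 probes). The first was not well above background at 32 months, and was 3.29-fold lower there by its dim signal. The other 4 probes had between 53.0 and 68.2 at both ages. The median was -0.07 with dim probes kept and -0.32 after normexp correction, and the call ended under both. It was kept in 8 of the 10 settings in which the region was measured. With only probes well above background at both ages the region was not measured, since 1 probe remained.

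**Figure D5:**
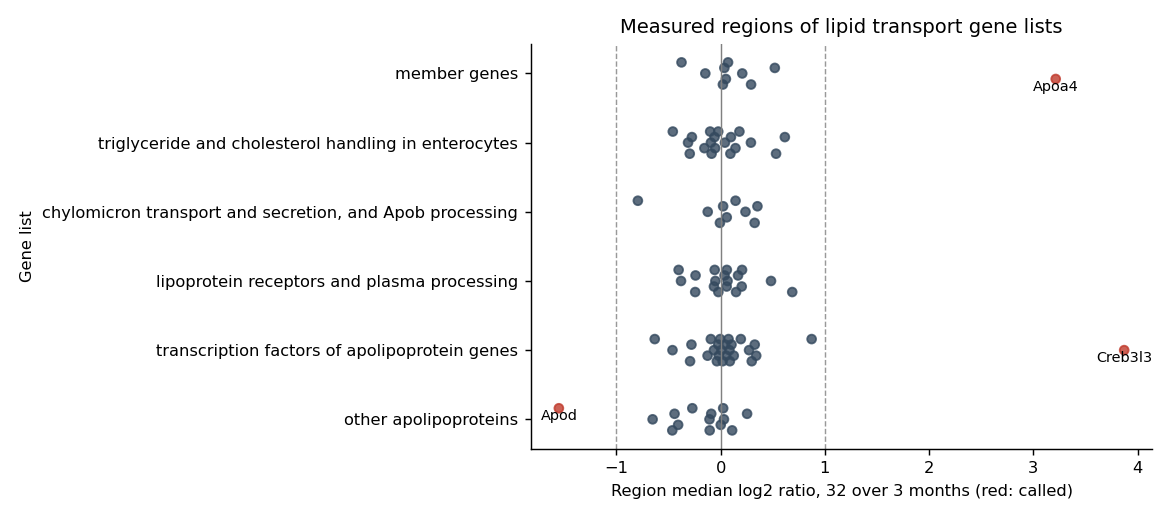
Median log2 ratio of 32-month over 3-month signal for each measured region of the members and of 5 lists of lipid transport genes, with called regions in red and dashed lines at -1 and 1. Apoa4 at 3.21 and the region of Creb3l3 at 3.87 lie right of the lines, Apod at -1.55 lies left of them, and the rest lie between.

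Cell types were not estimated from these signals, and marker genes are described by their own signal alone. Among measured regions of marker genes of enterocytes, immune cells, smooth muscle and enteric neurons, 3, 4, 4 and 3 in turn, none was called. Their medians were -0.15, -0.082, 0.11 and 0.053. Over all measured regions 2.01% were called higher and 0.632% lower, so the absence of calls among so few regions tells nothing about cell makeup. Of the 6 enterocyte genes listed, only 3 were measured. A difference in cell makeup between the samples and its part in the Apoa4 result were not tested.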

How the data were processed

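Genomic DNA from mouse intestine at 3 and 32 months was hybridised to 2 arrays, described by 4 sample records. Per the submitters' processing notes, Agilent Feature Extraction 9.1.3.1 read the images. Per the file headers, the deposited processed intensity values had a fitted spatial background surface subtracted, were detrended over the array and were scaled between dyes by a linear factor. The scanner's log10 ratio, deposited per spot, served only in an alternative. The authors' value table equalled the processed signals in 100% of spots. The genome build is not given in the sources used here.

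Control spots, outlier-flagged spots and probes without a position were left out. Alternatives were uncentred ratios, loess (span 0.3) and normexp (offset 50) in limma 3.58.1 under R 4.3.3, other probe filters, the mean over probes, joining distances of 500 and 2000 bp and a threshold of 1.5. Other steps used Python 3.11.15 with pandas 2.3.3. A fold with a dim channel was centred on the array median like the other ratios. It was the brighter signal over the higher of the dim probe's own signal and the array's lowest signal well above background. That lowest signal was 53.2 and 55.3 at 3 and 32 months on the first array and 51.3 and 46.8 on the second. For each such fold given, the dim probe's own signal was the higher, so the fold is no bound. On the first array 71.2% and 72.5% of 41545 probes were well above background at 3 and 32 months, on the second 71.4% and 70.1% of 41577, and 0 were saturated. Signal over background and the number of arrays limit the precision.

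Members and gene lists were chosen with earlier results of these data known. Named were all members with their probes, called neighbours within 100000 bp, all measured neighbours at the Apoa1 locus, and called members of the lists. Apoc4, Tomm40, Zfp259 and the uncalled stretches at the other ends of the Creb3l3 and Gemin7 intervals were added after values were seen. Gene names, current symbols and promoter sequences came from RefSeq on GRCm38.p6, and no coordinates were converted between builds. A probe beside a listed gene is not reported here.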

Additional observations from a re-analysis of the deposited data

How the results depend on the processing

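Across 11 alternative settings the member regions gave 1 call higher and 0 lower, and the call was Apoa4 each time. Among them, the authors' value table equalled the signals used, so that setting could not differ, yet it is in each count of settings given. Other probe filters and joining distances left the Apoa4 probes unchanged, with the median at 3.21. The median over member regions lay between 0.05 and 0.13 in the 10 settings in which it was recomputed. The Apoa4 median moved by more than the spread between its probes once, to 2.14 after normexp correction. Of 131 further values of single regions and probes under these settings, 125 moved by less than the spread between probes or not at all, and 6 moved by more. A reversal could be counted only for called regions, and 0 occurred. The spread is a wide limit: the Creb3l3 median, with an SD of 1.65, went from 3.87 to 2.31 and counted as unmoved. For single probes that spread was the median SD of the member regions, for regions their own SD. Signs near 0 turned in uncalled regions: Apoa1 in 3 settings, Apoc2 in 2, Apoe and Mttp in 1 each. The cause was not tested. Signal over background left Mttp and Apoa2 with the most unusable probes, 3 each. In Apoc3 an unusable probe left the gene body unmeasured as a region. No paired analysis was possible because each age has 1 sample per array.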
